A study of Mus musculus with 4 samples.

Results

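The genes described here are 9 mouse genes of the MHC class II pathway: the classical chains H2-Aa, H2-Ab1, H2-Eb1 and H2-Eb2, the peptide-loading genes H2-DMa, H2-Oa and H2-Ob, the invariant chain Cd74 and the transcriptional coactivator Ciita. They were taken by gene symbol from an array table of 35556 probe sets, in which 19938 genes had a probe set with a single symbol. Each of the 9 genes had 1 such probe set, so no choice between probe sets was needed. The genes were picked because earlier results on these same arrays had shown them lower on the arrays labelled as Bach1 knockout, so the difference between genotypes is given below as a description and supports nothing.

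The series holds 4 arrays of total RNA from mouse bone marrow grown with 20 ng/ml GM-CSF, a cytokine that drives marrow progenitors to become macrophages and cells resembling dendritic cells. Marrow came from mice of the B6 background that were Bach1 (+/+) (wild type) or Bach1 (-/-), and after 6 days the cultures received heme (40 µM; the unit is spelled µm in the labels) or vehicle, a salt solution with ammonium hydroxide. Only cells that still adhered 24 hours later were collected. The number of mice behind each culture and the design of the Bach1 allele are not stated in the labels. The 4 groups, wild-type vehicle, wild-type heme, labelled knockout vehicle and labelled knockout heme, have 1 array each. No difference below therefore has a replicate check, a p-value or a replicate error, and a difference between 2 arrays may reflect the 2 cultures and not the condition.

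MHC class II molecules are pairs of an alpha and a beta chain that show peptides from the endocytic pathway to CD4 T cells, and dendritic cells, macrophages and B cells carry them. The invariant chain holds new class II molecules in the endoplasmic reticulum and steers them to endosomes, where cathepsins cut it down to a fragment called CLIP. H2-DM then exchanges CLIP for peptide, and H2-O, the pair of H2-Oa and H2-Ob, restrains H2-DM. Transcription of these genes depends on Ciita, which does not bind DNA itself but docks on RFX, CREB and NF-Y proteins bound to the X and Y boxes of class II promoters. In strains of the b haplotype, such as B6, H2-Ea is defective, so that H2-Eb1 is transcribed but has no alpha chain partner at the cell surface.

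Values are RMA signals on a linear scale, and all differences are of log2 values between arrays. A gene was called higher or lower in a comparison at a 2-fold difference or more when the brighter array reached the median of all values in the table, a signal of 30.96, termed "at level" below. The arrays had median signals between 30.4 and 31.4, and their log2 signals correlated in pairs with r between 0.975 and 0.981 across probe sets. The robust SD of log2 differences over all genes at level was 0.28 for heme in wild type, 0.28 for heme in the labelled knockout, 0.27 between genotypes in vehicle and 0.25 between genotypes in heme. For the targeted gene, Bach1, the signal was 212 and 264 on the wild-type arrays (vehicle, then heme) and 211 and 204 on the knockout arrays, so it did not separate the arrays by genotype. The position of its probes relative to the deletion is unknown, and it checks nothing about the labels; "knockout" below means labelled as such.

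The classical chains that pair into I-A were among the genes with the largest decreases on the knockout arrays. H2-Aa, the I-A alpha chain, read 2792 and 2233 on the wild-type arrays (vehicle, then heme) and 751 and 725 on the knockout arrays. H2-Ab1, its beta chain, read 2088, 1607, 656 and 538 on the same arrays. Both wild-type arrays lay above both knockout arrays at each chain: H2-Aa was 3.72-fold lower in the labelled knockout in vehicle and 3.08-fold lower in heme. H2-Ab1 was 3.18-fold lower in vehicle and 2.99-fold lower in heme. Only 16 of 10859 genes at level had a larger decrease than H2-Aa in vehicle, and 26 of 10790 did in heme.

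H2-Eb1, the beta chain of I-E, showed the largest genotype difference of the 9 genes. Its signal was 874 and 721 on the wild-type arrays (vehicle, then heme) and 224 and 191 on the knockout arrays. It was 3.90-fold lower in vehicle (log2 difference -1.96) and 3.78-fold lower in heme (-1.92), and 13 and 12 genes at level had larger decreases. H2-Eb2, a second beta chain gene beside it, read 20.3, 21.5, 19.1 and 16.2 on the 4 arrays in the same order and did not reach the level filter on any of them. How far such a signal lies above background is unknown, since the files hold no detection call. H2-Ea, the defective partner of H2-Eb1, likewise read between 11.1 and 12.1 on all 4 arrays.

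Cd74 had a pattern like that of the chains it escorts. Its signal was 3399 and 2879 on the wild-type arrays (vehicle, then heme) and 877 and 829 on the knockout arrays, which is 3.88-fold lower in the labelled knockout in vehicle and 3.47-fold lower in heme. The lower wild-type array was 3.28-fold above the higher knockout array, the widest such gap among the 9 genes.

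The peptide-loading genes were lower on the knockout arrays too, by 1.48-fold to 2.65-fold, against 2.99-fold to 3.90-fold for H2-Aa, H2-Ab1 and H2-Eb1. H2-DMa, the alpha chain of the CLIP-removing H2-DM, read 1211 and 861 on the wild-type arrays (vehicle, then heme) and 569 and 583 on the knockout arrays. It was 2.13-fold lower in the labelled knockout in vehicle and 1.48-fold lower in heme, so it passed the 2-fold rule in vehicle alone. Its beta chain genes H2-DMb1 and H2-DMb2 share 1 probe set that carries both symbols, and no value is given for them.

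H2-Oa, the alpha chain of the pair that restrains H2-DM, read 120 and 127 on the wild-type arrays (vehicle, then heme) and 56.1 and 65.4 on the knockout arrays, or 2.13-fold lower in vehicle and 1.94-fold lower in heme, just short of the rule. H2-Ob, its beta chain, read 98.8, 108, 37.2 and 44.6, or 2.65-fold lower in vehicle and 2.42-fold lower in heme. At both genes the wild-type arrays again lay above the knockout arrays, and within each genotype the heme array was the higher one.

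Ciita, the coactivator on which the other genes depend, read 98.8 and 69.8 on the wild-type arrays (vehicle, then heme) and 36.2 and 32.4 on the knockout arrays. It was 2.73-fold lower in the labelled knockout in vehicle and 2.15-fold lower in heme, with 50 and 81 genes at level showing larger decreases. Both knockout signals lay close to the level filter. One probe set covers the gene, so transcripts from its separate promoters for dendritic cells, B cells and interferon-treated cells were not told apart.

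**Figure D1:**
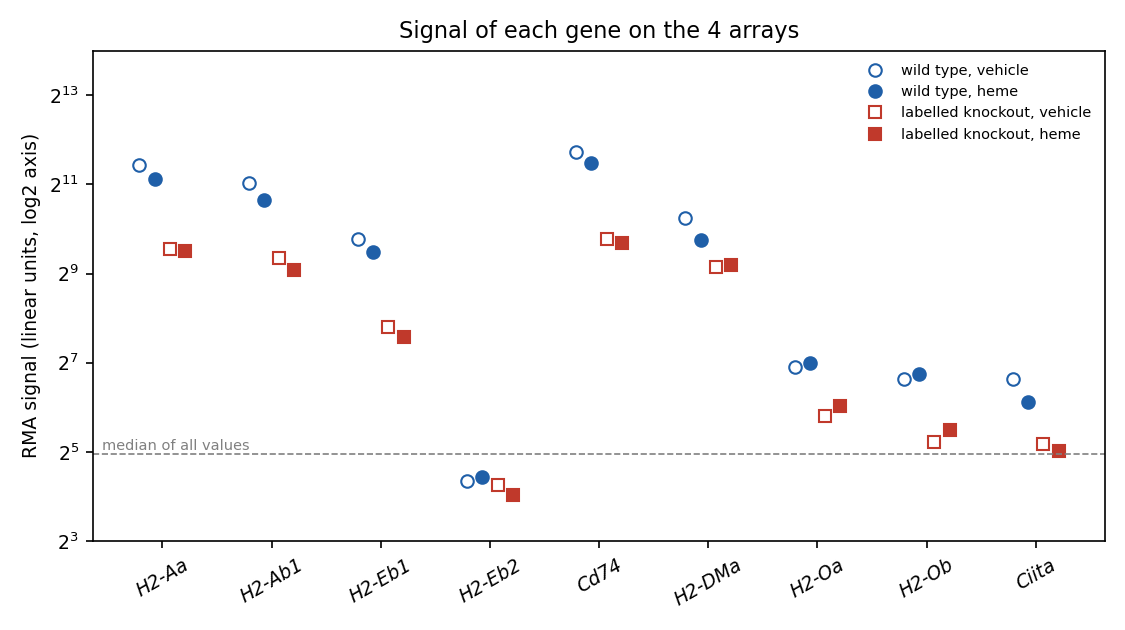
RMA signal of the 9 genes (linear units on a log2 axis), with 1 point per array: circles for wild type, squares for the labelled Bach1 knockout, open for vehicle and filled for heme, and a dashed line at the median of all values (30.96). Both circles stand above both squares at every gene, narrowly at H2-Eb2, which lies below the line.

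In vehicle, 8 of the 9 genes were 2-fold lower in the labelled knockout, all but H2-Eb2, and 0 were higher, with a median log2 difference of -1.45. Over all genes at level, 1.14% were 2-fold lower and 0.525% higher, and the median difference was -0.02. In heme, 6 of the 9 were 2-fold lower, all but H2-Eb2, H2-DMa and H2-Oa, with a median of -1.27, against 0.973% of all genes at level lower, 0.519% higher and a median of 0.01. The vehicle and heme comparisons use different arrays. Whether the cultures of a genotype shared marrow is not stated, so the comparisons may not be independent. The same 6 genes, H2-Aa, H2-Ab1, H2-Eb1, H2-Ob, Cd74 and Ciita, were 2-fold lower in both, as were 0.484% of the 11155 genes at level on any array. All 9 genes had both wild-type arrays above both knockout arrays, which 18% of genes at level had too. A gap of 2-fold or more between the lower wild-type and the higher knockout array was present at 5 of the 9 genes and at 34 genes in all, or 0.305%. Because these contrasts chose the genes, nothing is read from these shares. Adding 32 to each signal before log2 shrinks differences at low signals. Then 5 of the 9 genes were 2-fold lower in vehicle and 4 in heme, against 0.516% and 0.454% of all genes at level. H2-Oa, H2-Ob and Ciita then missed the rule in vehicle, and H2-Ob and Ciita did in heme as well.

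In wild-type cells 0 of the 9 genes were 2-fold lower or higher with heme, where 0.891% of all genes at level were lower and 1.17% higher. The median difference of the 9 was -0.28, against -0.01 over all genes at level, and 6 of the 9 lay below 0. The largest decreases were those of Ciita (-0.50, or 1.42-fold lower), H2-DMa (-0.49), H2-Ab1 (-0.38) and H2-Aa (-0.32), while H2-Ob (0.12), H2-Eb2 (0.08) and H2-Oa (0.08) were slightly higher. In the labelled knockout 0 of the 9 reached 2-fold, where 0.452% of genes at level were lower and 1.2% higher, and the median was -0.08. There the values ran from -0.28 at H2-Ab1 to 0.26 at H2-Ob.

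The heme response in the labelled knockout minus that in wild type had a median of 0.14 over the 9 genes and did not reach 1 at any of them, while 0.879% of genes at level were at -1 or below and 1.17% at 1 or above. It was largest at H2-DMa (0.53) and Ciita (0.34). At 5 of the 9 genes, H2-Aa, H2-Ab1, H2-Eb1, Cd74 and Ciita, the arrays stood in the order wild-type vehicle, wild-type heme, labelled knockout vehicle, labelled knockout heme from high to low, as at 5.1% of genes at level. For these genes the labelled knockout in vehicle lay below wild type with heme. That order needs both wild-type arrays above both knockout arrays, the contrast that chose the genes, so nothing is read from this share. Hmox1, the heme-degrading enzyme that Bach1 represses, was named after its values were seen. It read 1827 and 9881 on the wild-type arrays (vehicle, then heme) and 9047 and 10330 on the knockout arrays. Its log2 difference was 2.44 (5.41-fold) for heme in wild type and 2.31 (4.95-fold) for the knockout label in vehicle. The 8 class II genes at level had log2 differences of -0.50 to 0.12 and of -1.96 to -1.09 in the same comparisons. Both comparisons subtract the same wild-type vehicle array, so they are not independent. The class II genes were chosen by the genotype contrast and Hmox1 was named with its values known, so their unlike patterns support nothing. What lies behind these patterns was not tested.

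**Figure D2:**
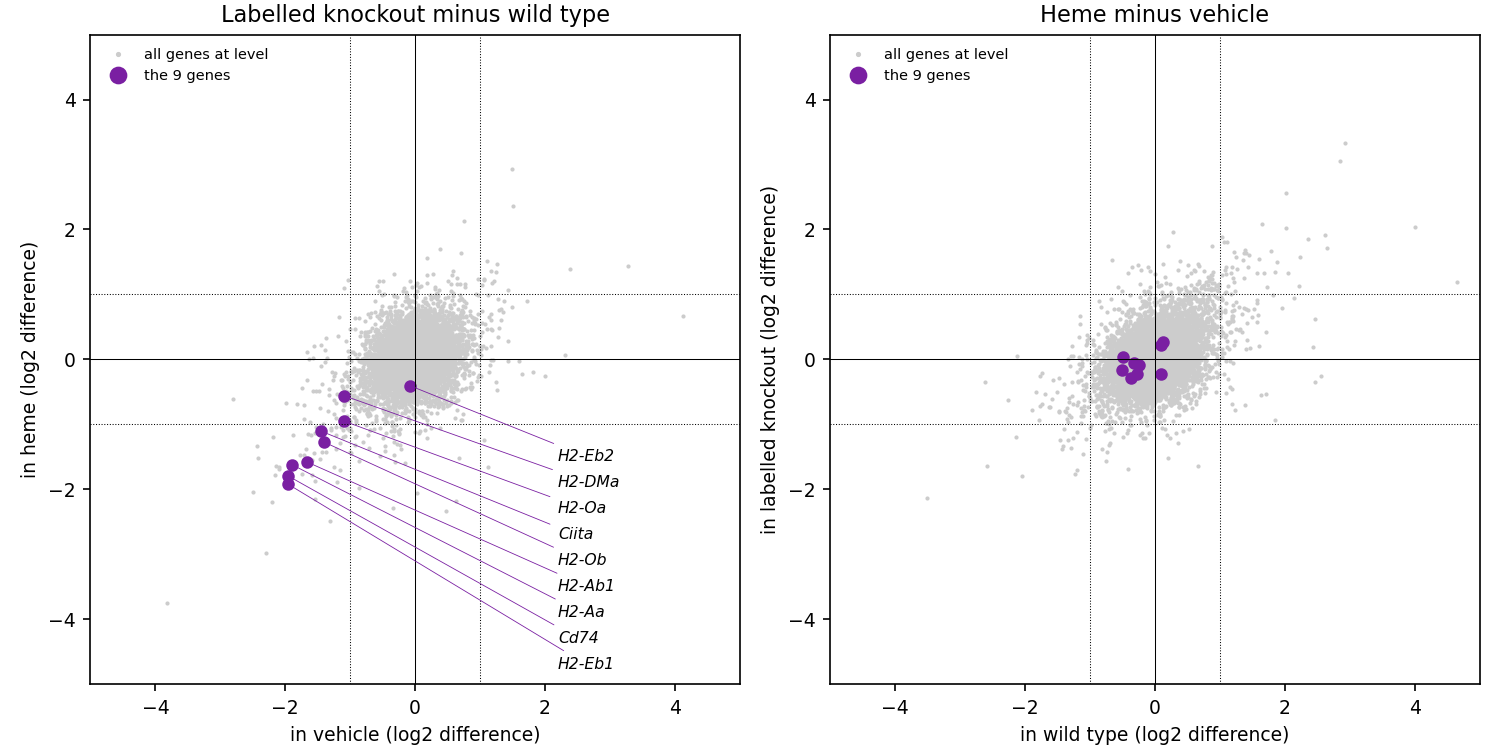
Log2 differences of all genes at level on any array (grey) and of the 9 genes (purple): on the left the labelled knockout minus wild type in vehicle (x) and in heme (y), on the right heme minus vehicle in wild type (x) and in the labelled knockout (y), with dotted lines at 2-fold. On the left 6 of the 9 genes lie beyond the 2-fold lines on both axes, and on the right all 9 lie inside them.

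Promoter sequences are shown because they did not enter the choice of the genes, and because the X and Y boxes of class II promoters are where Ciita docks. RefSeq promoter windows (GRCm38.p6, from 250 bases before to 50 bases after the annotated start) were held for 6 of the 9 genes, not for H2-Ab1, Cd74 or Ciita. The letters GCAAC, the core of the X box bound by RFX, and GATTGG, the Y box with its inverted CCAAT bound by NF-Y, were searched on both strands, singly and as GCAAC followed by GATTGG after a gap of 15 to 40 bases. These letters and the gap were set after reading the windows. The pair was found in 5 of the 6 genes, with gaps of 24 to 27 bases. Both elements are in capitals in the stretches below, each written in the direction of its gene and starting 10 bases before the X box core.
H2-Aa: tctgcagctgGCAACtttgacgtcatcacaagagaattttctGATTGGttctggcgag
H2-Eb1: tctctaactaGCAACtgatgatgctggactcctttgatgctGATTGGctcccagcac
H2-Eb2: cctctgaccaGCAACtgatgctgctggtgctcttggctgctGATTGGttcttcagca
H2-Oa: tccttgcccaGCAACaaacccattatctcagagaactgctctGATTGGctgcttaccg
H2-Ob: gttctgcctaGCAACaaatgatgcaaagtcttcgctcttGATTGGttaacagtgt

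The H2-Aa stretch lies at chr17:34287857-34287914 on the minus strand. The others lie on the plus strand, at chr17:34305766-34305822 for H2-Eb1, chr17:34325533-34325589 for H2-Eb2, chr17:34092293-34092350 for H2-Oa and chr17:34238808-34238862 for H2-Ob. The X box core began 81 bases before the annotated start in H2-Aa, 91 in H2-Eb1, 132 in H2-Eb2, 76 in H2-Oa and 87 in H2-Ob. Between the capitals, where the CREB-binding part of the X box lies, H2-Aa has TGACG, while H2-Eb1, H2-Eb2 and H2-Ob have TGATG and H2-Oa has neither. The 2 windows of H2-DMa, which had the smallest genotype difference among the 8 genes at level in heme, do not hold the pair, which says only that these letters are not in those windows. The beta chain genes of H2-DM hold GATTGG without the exact letters GCAAC. Only exact letters were searched, so an X box with other letters would be missed, and both stretches hold TGATG. They are shown here with 35 bases before the Y box.
H2-DMb1: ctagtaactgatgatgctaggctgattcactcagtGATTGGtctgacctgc
H2-DMb2: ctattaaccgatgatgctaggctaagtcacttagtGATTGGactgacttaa

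These lie on the plus strand at chr17:34153094-34153144 and chr17:34145123-34145173. Of all 32851 promoter windows, 35.2% held GCAAC, 16.1% held GATTGG and 0.435% held the pair. The letters and the gap were set after the windows of the class II genes were read, so these shares support nothing about those genes. H2-Eb2 holds the pair and was below the level filter on every array. Outside the 9 genes, 96 measured genes had the pair in a window. Of those at level, 0 of 60 were 2-fold lower in the labelled knockout in vehicle and 0 of 58 in heme, with medians of 0.03 and 0.01. Over all genes at level the shares were 1.14% and 0.973%. A count of 0 among so few genes is near these shares, and nothing about the pair is read from it.

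The class II genes sit together on chromosome 17, and the genes between them gave a comparison within the same stretch of the genome. From H2-Oa to H2-Eb2 the RefSeq gene table lists 15 genes, of which 7 are among the 9 described here and 5 others had a probe set of their own. Those 5 are Brd2, a bromodomain protein, Psmb8 and Psmb9, subunits of the immunoproteasome, and Tap1 and Tap2, which carry peptides to class I molecules. Brd2 read 486 and 525 on the wild-type arrays (vehicle, then heme) and 484 and 503 on the knockout arrays. Tap1 read 138, 143, 137 and 141 on the same arrays. None of the 5 was 2-fold lower or higher between genotypes. Their values ran from -0.36 (Tap2) to -0.01 in vehicle and from -0.25 (Psmb8) to -0.03 in heme. Over all genes at level 1.14% were 2-fold lower in vehicle and 0.973% in heme, so none among 5 is near those shares. Psmb8, Tap2, Tap1 and Psmb9 lie between H2-DMa and H2-Ob, both of which were 2-fold lower in vehicle.

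**Figure D3:**
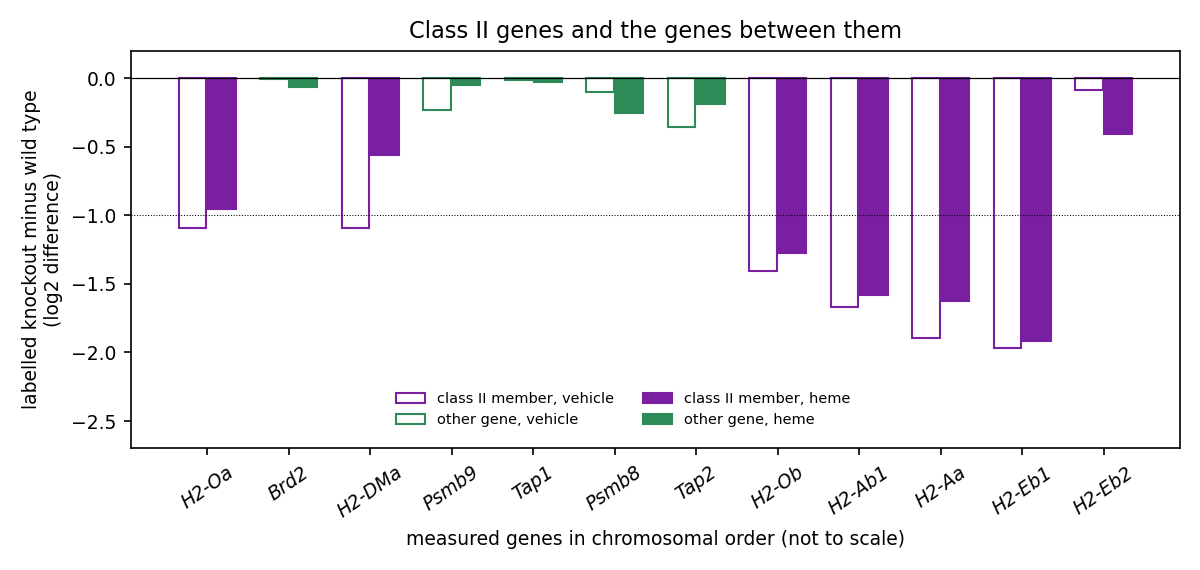
Labelled knockout minus wild type (log2 difference) for the 12 measured genes from H2-Oa to H2-Eb2 in their chromosomal order, not to scale, in vehicle (open bars) and heme (filled bars), with a dotted line at 2-fold lower. Class II members (purple) other than H2-Eb2 reach -1.09 or below in vehicle, and the 5 genes between them (green) stay between -0.36 and -0.01.

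A further list held genes that work beside class II molecules: proteases and their inhibitor, the reductase Ifi30, ubiquitin ligases, tetraspanins, the lysosomal protein Lamp1 and the defective chain gene H2-Ea. Of its 18 measured genes, 17 were at level, all but H2-Ea. Between genotypes 0 were 2-fold different in vehicle or in heme, with medians of -0.03 and 0.09. Over all genes at level, 1.14% were lower and 0.525% higher in vehicle, and 0.973% and 0.519% in heme. A count of 0 in a list this short is near those shares, which also apply to the lists below. Ctss, the cathepsin that cuts the invariant chain, read 6210 and 4863 on the wild-type arrays (vehicle, then heme) and 6223 and 5041 on the knockout arrays, so its levels went with heme and not with genotype. Lgmn, the endosomal protease legumain, was the single gene of the list at 2-fold in any comparison: it read 1228, 561, 915 and 520, or 2.19-fold lower with heme in wild type and 1.76-fold lower in the labelled knockout. Marchf1, a ubiquitin ligase that sends class II molecules to degradation, read 165, 224, 147 and 173.

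Among the factors that act upstream of class II transcription, 1 of 25 measured genes was 2-fold lower between genotypes in vehicle, and the same gene in heme. This was Jak2, the kinase of the interferon gamma and GM-CSF receptors, which read 454 and 485 on the wild-type arrays (vehicle, then heme) and 132 and 175 on the knockout arrays, or 3.43-fold lower in vehicle and 2.77-fold lower in heme. Irf4, a transcription factor of dendritic cells, read 158, 157, 87.3 and 90.2, or 1.81-fold and 1.74-fold lower. The list's median was -0.18 in vehicle and -0.04 in heme. The subunits that bind the X and Y boxes, Rfx5, Rfxap, Rfxank, Nfya, Nfyb, Nfyc and Creb1, all differed by less than 2-fold: their values ran from -0.49 (Rfx5) to 0.24 (Nfya) in vehicle and from -0.49 (Nfyb) to 0.18 (Nfyc) in heme. Spi1, which encodes PU.1, read 747, 727, 601 and 650. The repressor Prdm1 read 129, 64.6, 108 and 69.2, lower with heme in both genotypes by 1.99-fold and 1.57-fold.

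Genes of the class I pathway were measured on the same arrays, without the heavy chains H2-K1, H2-D1 and H2-T23, which had no value. Of 13 measured genes, 0 were 2-fold different between genotypes in vehicle or heme, with medians of -0.10 and -0.03. Among them are Psmb8, Psmb9, Tap1 and Tap2, already given for chromosome 17. H2-M3, the only heavy chain of the list with a value, differed by -0.55 in vehicle and -0.10 in heme. B2m, the light chain of class I, read 5664, 5667, 5685 and 5503 in the order used above, and Nlrc5, the coactivator of class I genes related to Ciita, read 243, 233, 282 and 238.

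Markers of the cells that could hold class II were set beside these values. Of 20 dendritic cell markers, 7 were 2-fold lower in the labelled knockout in vehicle and 6 in heme, and 0 were higher, with medians of -0.64 and -0.42. Their summed signal was 8627 and 7179 on the wild-type arrays (vehicle, then heme) and 5382 and 4839 on the knockout arrays. Bright genes weigh most in this sum, so it does not measure the share of dendritic cells. Ccl17 read 1520, 1019, 107 and 76.0 on the same arrays, and Sirpa, the brightest of the list, read 3271, 2770, 3159 and 3001. The list was set with earlier results of these arrays known. The chemokine Ccl17 was 14.2-fold lower in vehicle and 13.4-fold lower in heme, and Ccl22, which binds the same receptor, was 4.92-fold and 7.93-fold lower. The kynurenine enzyme Kmo read 56.5 and 50.1 on the wild-type arrays and 13.2 and 15.5 on the knockout arrays. Ccr7, the receptor that guides dendritic cells to lymph nodes, read 90.7, 119, 35.2 and 44.6. Clec9a, a lectin of cross-presenting dendritic cells, went the other way by less than 2-fold (log2 difference 0.68 in vehicle and 0.28 in heme), and Sirpa, a receptor of other dendritic cells and macrophages, differed by -0.05 and 0.12. Itgax, which encodes CD11c, read 1340, 741, 972 and 547 and differed by less than 2-fold between genotypes, and Flt3, Zbtb46, Xcr1, Cd209a and Dpp4 were below the level filter on every array. Fewer dendritic-type cells and less class II RNA per cell cannot be told apart in these bulk samples, and the part of the dendritic cell markers in the class II difference was not tested.

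All 14 measured macrophage markers were at level. Their summed signal was 26100 and 23505 on the wild-type arrays (vehicle, then heme) and 25317 and 24648 on the knockout arrays, and the medians between genotypes were -0.03 in vehicle and -0.03 in heme. In vehicle 4 of them were 2-fold lower, C1qa, C1qb, C1qc and Fcgr1, and in heme 1 was, C1qc. Of 11 measured B cell markers, 10 were below the level filter on every array, such as Cd79a at 5.34 to 7.64 and Fcrla at 21.0 to 29.0, and Bank1 exceeded it on the knockout heme array alone (33.9). Their summed signal lay between 170 and 184. Of 8 T and NK cell markers, 7 were below the filter on every array, and of 6 plasmacytoid cell markers 0 were 2-fold different in any comparison of 2 arrays. Of 10 neutrophil markers, 1 was 2-fold higher between genotypes in vehicle (Retnlg) and 1 lower in heme (Cxcr2). With heme in wild type, 3 neutrophil markers were 2-fold higher, against 1.17% of all genes at level. The same comparison had 4 macrophage markers 2-fold lower, C1qa, C1qb, C1qc and Fcgr1, against 0.891% of all genes at level. In the labelled knockout 0 of either list were 2-fold different with heme, where 0.452% of genes at level were lower and 1.2% higher.

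**Figure D4:**
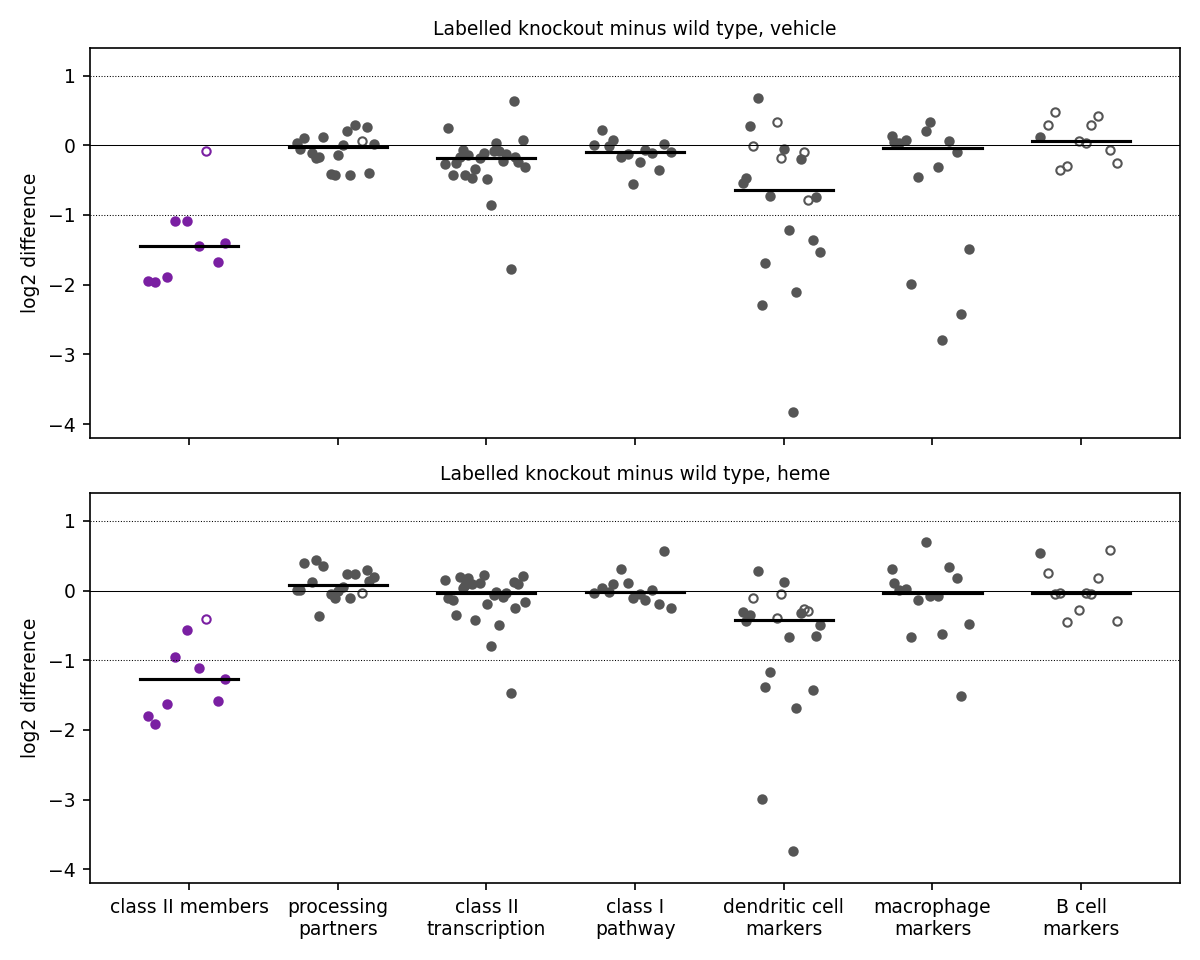
Labelled knockout minus wild type (log2 difference) for every measured gene of 7 lists, in vehicle (top) and heme (bottom), with filled points for genes at level on any array, open points for the others, bars at list medians and dotted lines at 2-fold. The class II members (purple) have medians of -1.45 and -1.27, genes of the list labelled processing partners and class I genes lie between the 2-fold lines, and dendritic cell markers spread down to -3.83.

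The genes whose pattern over the 4 arrays was most like that of the 9 genes were ranked by the largest gap, over the 4 arrays, between their centred log2 signal and the median of the 9. Of 11155 genes at level, the nearest outside the 9 were Dcstamp, a membrane protein required for cell fusion (largest gap 0.09), the lectin Mgl2 (0.10), the receptor subunit Il18r1 (0.11), the growth factor Pgf (0.13), the exchange factor Rasgrp4 (0.19), the membrane adaptor Scimp (0.20), the signalling protein Malt1 (0.22) and the sulfotransferase Chst11 (0.22). Dcstamp read 217 and 186 on the wild-type arrays (vehicle, then heme) and 74.0 and 68.3 on the knockout arrays. Scimp read 128, 91.3, 48.8 and 37.8. Among the 9 themselves, H2-Aa ranked 5 (gap 0.19), H2-Ab1 10, Ciita 11, Cd74 13, H2-Ob 15, H2-Eb1 36, H2-Oa 53 and H2-DMa 75. H2-Eb2, below the level filter on every array, entered the median but was not ranked. The median is made from the 9 genes, so their own near ranks are partly built in. With 4 arrays these ranks describe the arrays and carry no test.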

How the data were processed

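Total RNA was measured on 4 mouse whole-transcript arrays, 1 per group. The deposited values are intensity on a linear scale after RMA, which the authors ran, per the submitters' processing notes. RMA brings all arrays to nearly one distribution, so a shift of all genes cannot be seen. No version or genome build is stated. The series' design text describes other cells and another RNA kit; the sample labels were followed. No scaling was added.

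Of 35556 probe sets, the annotation gave 21789 a single symbol and 1621 several (not used), and did not list 12146. Symbols were updated by Entrez number through the RefSeq table of GRCm38.p6 (21698 matched), and genes with several probe sets took the brightest. With 1 array per group there was no test. The members and gene lists were chosen with earlier results of these data known. All members are named, with up to 4 genes per list at 2-fold or more and the 8 genes nearest in pattern; other list genes and Hmox1 were named for their role or as a list's extreme after their values were seen. Alternatives were fold rules of 1.5 and 3, no level filter or one at the 75th percentile (106), renewed quantile normalization, lowess centring, 32 added to each signal, and averaging all probe sets per gene. Calls were tried on simulated data with 3-fold changes in genes well above the level filter. Its noise was smaller than the spread between these arrays, so it does not show how 2-fold calls behave. Software was Python 3.11.15 with matplotlib 3.10.9, pandas 2.3.3, numpy 2.4.6 and statsmodels 0.14.6.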

Additional observations from a re-analysis of the deposited data

Results flagged for a closer look

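H2-DMa and H2-Eb2 had heme differences of opposite sign in the 2 genotypes, with 1 array in each group. At H2-DMa heme minus vehicle was -0.49 in wild type but 0.04 in the labelled knockout, so the response differed by 0.53 on the log2 scale. At H2-Eb2, below the level filter on every array, it was 0.08 in wild type but -0.23 in the labelled knockout, a difference of -0.32. Over all genes at level the robust SD of this quantity was 0.32. The difference between genotypes was not tested at either gene.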

How the results depend on the processing

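No paired analysis was possible because each group has 1 array and the labels carry no replicate numbers; for the same reason no array could be left out. Under a 3-fold rule, 4 of the 9 genes were lower in the labelled knockout in vehicle and 3 in heme, in place of 8 and 6. Over all genes at level, 0.322% and 0.26% were lower by that rule. With 32 added to each signal, 5 were 2-fold lower in vehicle, as were 0.516% of all genes at level. The median of the 9 genes was then -1.05 in vehicle and -0.87 in heme. That setting also moved H2-Oa, H2-Ob and Ciita in vehicle to -0.78, -0.92 and -0.94 and, in heme, H2-Ob, Ciita and H2-Eb2 to -0.87, -0.66 and -0.15; by construction it shrinks differences at low signals. The 1.5-fold rule, both level filters, quantile normalization applied again and lowess centring left the counts of the 9 genes within 1.5 times, and the last 2 left the medians within 1 robust SD. Averaging probe sets could not change any of the 9 genes, which have 1 probe set each, and says nothing about stability. No value at 2-fold or more changed sign under any of these settings. The number of arrays limits the precision of every value, and signals near or below 30.96 have an unknown distance from background.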
